A study of Mus musculus with 13 samples.

Results

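CC chemokines are small secreted proteins that draw leukocytes into tissue, and Ccr2 encodes the receptor that blood monocytes use to follow several of them. The genes described here were 9 CC chemokine genes, Ccl2, Ccl3, Ccl4, Ccl5, Ccl6, Ccl7, Ccl8, Ccl9 and Ccl12, together with Ccr2. They were chosen by symbol, and all 10 were found among the 22609 genes of the visceral fat table and among the 22609 genes of the tumour table. All 10 passed the filters on low values in both tissues.

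The mice were of the C57BL/6 strain. KO denotes hosts labelled as fat-specific knockouts of PD-L1, the T cell-restraining surface ligand encoded by Cd274, and WT denotes wild-type hosts. Visceral fat was taken after HFD (high-fat diet) feeding from KO hosts (4 libraries) and WT hosts (3 libraries), so every fat group shared that diet. E0771, a transplantable mouse mammary tumour line, was grown in KO hosts (3 libraries) and WT hosts (3 libraries), and the tumour cells themselves were not labelled as modified. The Cre driver, the age and sex of the mice and the diet of the tumour hosts are not given in the sources used here. Replicates were numbered without being tied to animals, so each p-value measures a spread between libraries that may be technical.

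The fat libraries held 29362788 to 41534662 recovered gene reads and the tumour libraries 22834259 to 34706555 gene reads. Cd274 showed no drop in the libraries labelled KO, at 521.1 to 563.8 in KO fat against 504.1 to 738.6 in WT fat (log2 difference -0.10, SE 0.15, limma adjusted p = 0.66), so the KO group is known here by its label. Each value covers all exons of the gene and all cells of the tissue, and a deletion limited to part of the gene or to adipocytes was not resolved. Genes of several cell types differed between the fat groups. The summed level of 13 adipocyte genes was 308753 to 498301 in KO fat and 1033330 to 1305370 in WT fat, and all 13 fell. The summed level of 14 macrophage genes was 302979 to 425913 in KO fat and 56709.7 to 158010 in WT fat, where 12 rose, 0 fell and none was at 0 in all libraries. Among all genes tested in fat, 16.8% rose and 17.4% fell. In the tumours 6 of 6 epithelial genes were tested, with a summed level of 8946 to 9699 in KO hosts, against 8852 to 10599.8 in WT hosts. Nearly all of that sum came from Krt8, at 8997 ± 428 in KO hosts and 9474 ± 951 in WT hosts (SD, n = 3 each). Genes of testis and epididymis summed to 1.08 to 11.04 in KO fat and 46.4 to 682 in WT fat. The epididymal genes Crisp1 and Defb48 were at 0 in every WT library, and the KO value of 11.04 was Crisp1. Of the 8 genes, only Prm2 passed the filter on low values.

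Most CC chemokine ligands act on receptors with overlapping specificities. Ccl2, Ccl7 and Ccl12, with the monocyte receptor Ccr2, form the best known axis by which monocytes leave the blood and enter inflamed or obese fat, where they can become macrophages. Ccl3, Ccl5, Ccl6 and Ccl9 act on Ccr1, while Ccl6 and Ccl9 are chemokines of rodents that macrophages make in quantity. In tumours, the same ligands are made by tumour cells, stroma and infiltrating leukocytes.

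The 9 chemokine genes lay on mouse chromosome 11 in 2 stretches of the GRCm38 assembly. The first stretch ran over 81.2 kb from 82035571 to 82116799 and held Ccl2, Ccl7, Ccl12 and Ccl8, all on the plus strand. The second ran over 139 kb from 83525778 to 83664683 and held Ccl5, Ccl9, Ccl6 and Ccl3 on the minus strand and Ccl4 on the plus strand. A gap of 1409 kb separated them. Only the genes described here were placed, and other genes within the stretches were not listed. Ccr2 lay on chromosome 9, from 124101950 to 124113557 on the plus strand. Of the 10 genes, 8 shared no 50-base exonic window with another gene, while Ccl9 shared 59 of 2996 windows and Ccr2 129 of 6758. Ccl6 overlapped the antisense gene E230016K23Rik, which had values of 50.8 to 100.7 in fat and 0 to 11.8 in tumours. Ccl2 overlapped the antisense model Gm17268, which was not used here. The strand setting of the counting is not given in the sources used here, so reads of such pairs may be divided between them.

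Upstream sequences of Ccl12 and Ccl8, neighbours of the first stretch, and of Ccl9 and Ccl6, neighbours of the second, are shown because the genes of each pair lie side by side, and Ccl9 and Ccl6 passed the test in fat described further on while Ccl12 and Ccl8 did not. They are the 250 bases before the transcript start in RefSeq on GRCm38.p6, written 5′ to 3′ on the strand of the gene, at chr11:82101595-82101844 (plus), chr11:82114935-82115184 (plus), chr11:83578637-83578886 (minus) and chr11:83593088-83593337 (minus). RefSeq promoters were matched for 6 of the 10 genes (Ccl12, Ccl8, Ccl9, Ccl6, Ccl3 and Ccr2). Capitals mark matches to the motifs named after the sequences.
Ccl12: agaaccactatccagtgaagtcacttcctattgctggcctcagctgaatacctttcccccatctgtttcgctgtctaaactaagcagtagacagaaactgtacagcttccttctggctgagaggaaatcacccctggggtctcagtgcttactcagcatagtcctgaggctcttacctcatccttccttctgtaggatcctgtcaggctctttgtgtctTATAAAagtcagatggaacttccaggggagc
Ccl8: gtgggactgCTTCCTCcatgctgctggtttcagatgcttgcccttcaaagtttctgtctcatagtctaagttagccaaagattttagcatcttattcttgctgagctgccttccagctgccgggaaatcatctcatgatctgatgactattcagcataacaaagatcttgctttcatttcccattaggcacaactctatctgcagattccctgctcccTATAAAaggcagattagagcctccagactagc
Ccl9: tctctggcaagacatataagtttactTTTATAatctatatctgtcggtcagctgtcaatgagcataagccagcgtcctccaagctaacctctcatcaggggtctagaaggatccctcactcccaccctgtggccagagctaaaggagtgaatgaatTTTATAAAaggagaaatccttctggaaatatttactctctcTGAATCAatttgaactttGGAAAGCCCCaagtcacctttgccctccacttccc
Ccl6: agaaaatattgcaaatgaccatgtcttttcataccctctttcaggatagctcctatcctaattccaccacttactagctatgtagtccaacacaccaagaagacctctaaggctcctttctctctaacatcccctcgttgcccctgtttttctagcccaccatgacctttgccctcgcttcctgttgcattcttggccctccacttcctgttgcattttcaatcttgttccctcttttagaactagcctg

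The motifs were searched on both strands in the same window of 32851 mouse promoters. TATAAA, the core of the TATA box, was present in 3 of the 6 promoters, those of Ccl12, Ccl8 and Ccl9, and in 12.4% of all promoters. It began at position -31 in Ccl12 and at -32 in Ccl8, counting -1 as the base before the transcript start. In Ccl9 it began at -92, where it overlapped its own reverse complement TTTATA at -94, and the reverse complement occurred again at -224. The NF-kB motif GGGNNNNNCC was matched in Ccl9 alone of the 6, at -35 on the opposite strand, against 45.8% of all promoters. The AP-1 motif TGANTCA was matched at -53 in Ccl9, against 6.75% of all promoters, and the PU.1 motif GAGGAAG at -241 on the opposite strand of Ccl8, against 10.6%. The C/EBP motif TTGCNNAA and the STAT motif TTCNNNGAA, held by 9.56% and 7.02% of all promoters, had no match in the 6 windows. A match describes letters and is not a measured binding site.

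Of the 15 pairs among the 6 windows, Ccl12 and Ccl8 had the most identical bases in their best local alignment. It spanned -147 to -7 in both genes and had 89 identical bases in 146 aligned columns (61.0%). The next pair, Ccl6 and Ccr2, had 30 identical bases in 44 columns. Ccl9 and Ccl6 shared only a short run, with 16 of 17 bases identical, at -18 to -2 in Ccl9 and at -59 to -43 in Ccl6.

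In KO visceral fat, 4 of the 10 genes rose against WT fat, namely Ccl3, Ccl4, Ccl9 and Ccl6, 0 fell and 6 did not pass at an adjusted p under 0.05 (limma on log2 values, adjusted over all 14455 genes tested). Over all genes, the same rule called 34.2%, with 16.8% higher and 17.4% lower in KO fat. The median log2 difference of the 10 genes was 0.62, against -0.000497 over all genes tested, and 6 of 10 lay above 0, where 50% of all genes did. Fat values are read counts scaled for library size by the authors, and fold changes compare means of log2(value + 1), which understates the change of low genes. Whole fat was sequenced, so fewer cells of a type and less RNA per cell cannot be told apart.

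Ccl9, which encodes the CCR1 ligand MIP-1 gamma, had values of 30584, 34796, 17080.2 and 20421 in KO fat, against 10899.5, 8017 and 3769.7 in WT fat. Every KO library was above every WT library, with KO replicates 1 and 2 highest and WT column 4 lowest. The mean was 25720.2 ± 8342 (SD, n = 4) in KO fat, against 7562 ± 3587 (SD, n = 3) in WT fat, a 3.57-fold rise (95% confidence interval 1.95 to 6.54, limma adjusted p = 0.0077).

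Ccl6, its neighbour and another CCR1 ligand, had values of 35950.5, 40981, 19529.8 and 22036 in KO fat, against 15794, 12433 and 5869 in WT fat. The 7 libraries stood in the same order as for Ccl9, and again the groups did not overlap. The rise was 2.69-fold (95% confidence interval 1.47 to 4.94, limma adjusted p = 0.0214). This call was the least stable of the 4, with an adjusted p of 0.0528 without KO replicate 1, 0.0567 without KO replicate 2 and 0.0502 without WT column 4.

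Ccl3, which encodes the inflammatory chemokine MIP-1 alpha, had values of 479.1, 373.3, 306.9 and 229.8 in KO fat, against 110.1, 32.3 and 19.6 in WT fat. These rested on 434, 346, 338 and 228 reads in KO fat and on 128, 33 and 19 reads in WT fat. The lowest KO library was above the highest WT library. It had the largest fold change of the 10 genes, 7.93 (95% confidence interval 3.43 to 18.3, limma adjusted p = 0.00409), and passed without any of the 7 libraries in turn.

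Ccl4, which encodes MIP-1 beta and lies next to Ccl3, had values of 132.5, 144.6, 127.1 and 57.4 in KO fat, against 54.2, 24.5 and 16.5 in WT fat. The groups did not overlap, but KO replicate 4 (57 reads) and WT column 1 (63 reads) were close. The fold change was 3.78 (95% confidence interval 1.82 to 7.84, limma adjusted p = 0.0139), and the adjusted p was 0.0531 without WT column 3. Taken 1 gene at a time, the exact permutation test (two-sided, 35 relabellings) gave p = 0.0286 for Ccl9, Ccl6 and Ccl3, the smallest that 4 against 3 libraries allow, and 0.0571 for Ccl4. In all 4 genes that rose the KO libraries lay above the WT libraries, as they did in 21.6% of all genes, and no member had every KO library below WT, as 22.1% of all genes did.

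**Figure D1:**
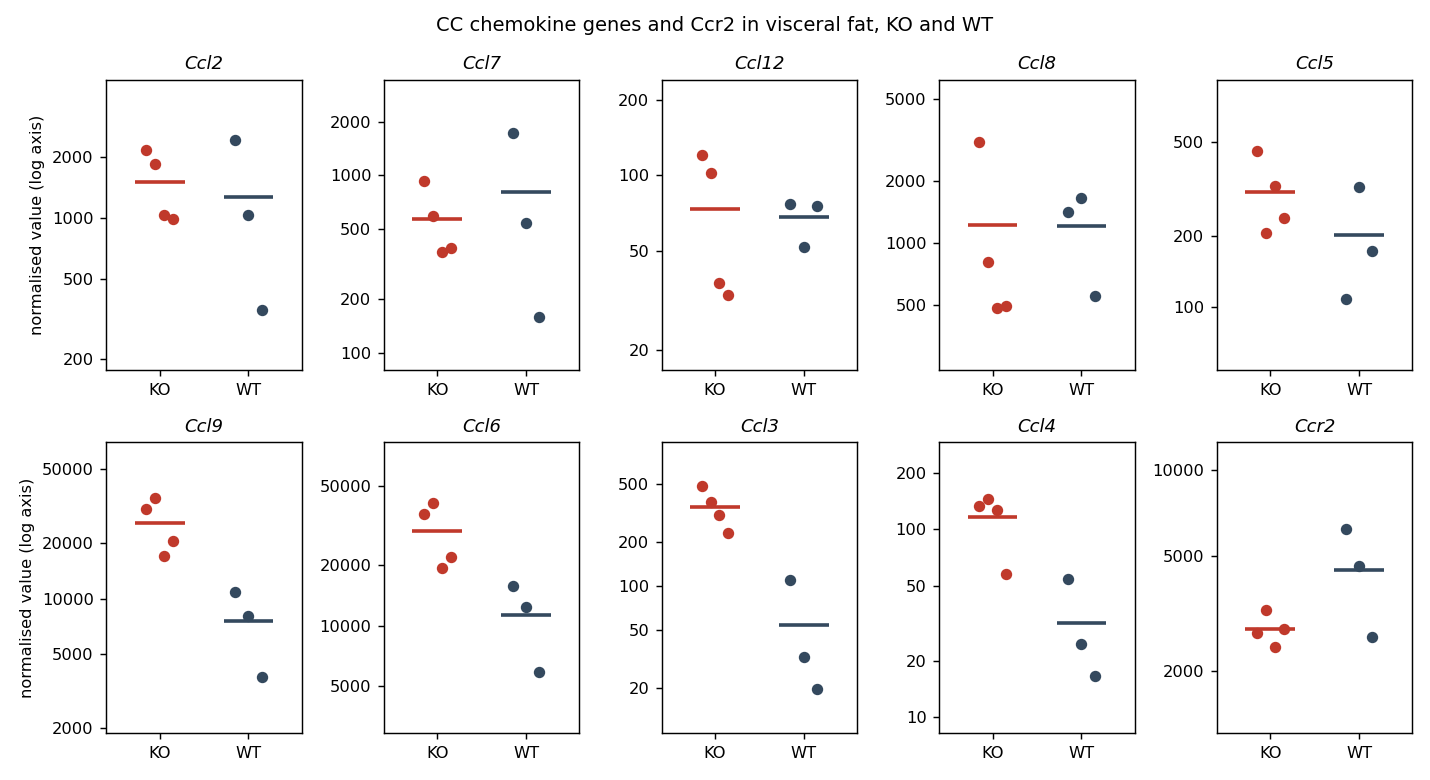
Normalised value of each gene in visceral fat (log axis, a scale of its own per panel), with a point per library and a line at the mean of 4 KO and 3 WT libraries. Ccl9, Ccl6, Ccl3 and Ccl4 show every KO point above every WT point, and the other panels overlap.

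None of the ligands described here from the first stretch passed. Ccl2, the main ligand of the receptor CCR2, had values of 2175, 1854, 1031 and 989.6 in KO fat, against 2424, 1037 and 350.6 in WT fat. The WT libraries spanned the whole KO range, with a 2.20-fold gap between the highest and lowest library in KO fat and a 6.91-fold gap in WT fat. The log2 difference was 0.57 (SE 0.59, limma adjusted p = 0.483), and the interval of the fold ran from 0.585 to 3.77.

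Ccl7, a ligand shared by CCR2 and other receptors, had values of 923.9, 591.2, 367.7 and 389 in KO fat, against 1719, 541 and 159.8 in WT fat. Its libraries stood in nearly the order of Ccl2, with WT column 1 highest and WT column 4 lowest for both. The fold was 0.997 (95% confidence interval 0.329 to 3.03, limma adjusted p = 0.997).

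Ccl12, a CCR2 ligand of the mouse also called MCP-5, had values of 120.3, 102.5, 37.2 and 33.3 in KO fat, against 76.6, 51.8 and 75.3 in WT fat. KO replicates 1 and 2 were above all WT libraries and KO replicates 3 and 4 below them. The fold was 0.938 (95% confidence interval 0.435 to 2.02, limma adjusted p = 0.902).

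Ccl8, which in the mouse acts on the receptor CCR8, had values of 3084, 813.4, 485.7 and 496.8 in KO fat, against 1416, 1646 and 555.8 in WT fat. KO replicate 1 was the highest of the 7 libraries, while KO replicates 3 and 4 were the lowest. The log2 difference was -0.31 (SE 0.66, limma adjusted p = 0.75) with all libraries and -0.91 (adjusted p = 0.14) without KO replicate 1. Thus 0 of the 4 genes described here from the first stretch and 4 of the 5 from the second passed. The difference between the stretches was not tested.

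Ccl5, also called RANTES and made chiefly by T cells and NK cells, was the gene described here from the second stretch that did not pass. It had values of 455.9, 205, 324.1 and 236.8 in KO fat, against 108.4, 321.8 and 173.2 in WT fat. WT column 3 lay above KO replicates 2 and 4, and WT column 1 was the lowest library. The fold was 1.59 (95% confidence interval 0.854 to 2.97, limma adjusted p = 0.216). Of 11 T cell genes tested, 2 rose and 0 fell in KO fat, where 16.8% of all genes rose. Their summed level was 818 to 1474 in KO and 822 to 1417 in WT. Of 9 NK cell genes tested, 0 rose and 0 fell, with sums of 401 to 829 in KO and 405 to 744 in WT.

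Ccr2 was the only one of the 10 genes whose fold interval lay below 1. Its values were 2703, 3247, 2423 and 2791 in KO fat, against 6248, 4639 and 2621 in WT fat. The KO libraries were close to each other, and WT column 4 lay among them, below KO replicates 1, 2 and 4. The fold was 0.656 (95% confidence interval 0.431 to 0.996), with a limma p of 0.0484 that was 0.107 after adjustment and an exact permutation p of 0.171. Without WT column 4 the log2 difference was -0.96 and the adjusted p 0.00653, so this library decided whether Ccr2 passed. The same library was the lowest of all 7 for Ccl2, Ccl7, Ccl9, Ccl6, Ccl3 and Ccl4.

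**Figure D2:**
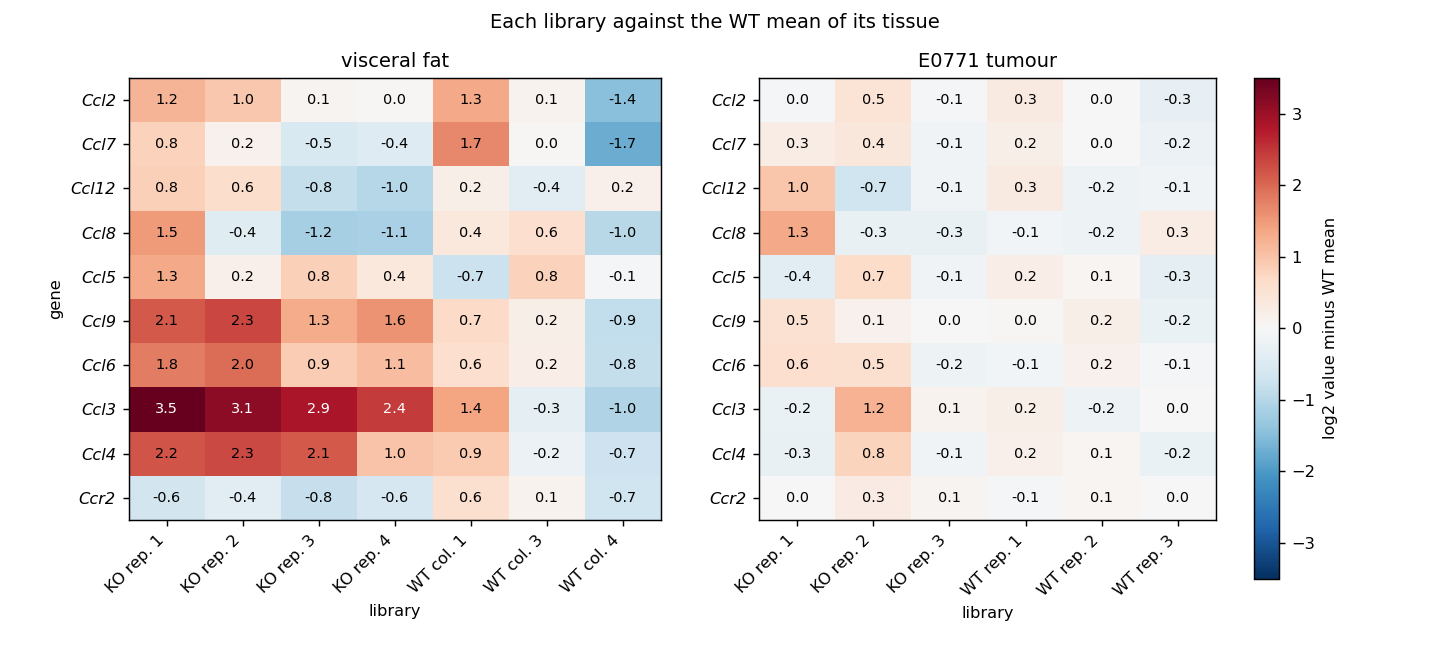
Log2 value of each gene in each library minus the mean log2 value of the WT libraries of its tissue, with fat at the left and tumours at the right. In fat, Ccl3 ranges from 2.44 to 3.502 in KO libraries, and Ccr2 is below 0 in all 4 KO libraries and in WT column 4.

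Levels of different genes were compared per kilobase of exon. In KO fat the order of mean level was Ccl6 (16504 per kb), Ccl9 (8447), Ccl8 (2388), Ccl2 (1329), Ccl7 (709), Ccl3 (453), Ccr2 (413), Ccl5 (318), Ccl4 (175) and Ccl12 (137). The ranges of each gene and the next one overlapped throughout this order. Within each fat library, KO or WT, Ccl6 was nevertheless above Ccl9. In WT fat Ccl6 (6332 per kb), Ccl9 (2483) and Ccl8 (2360.2) again led, and Ccl3 (70.5) and Ccl4 (48.1) came last, below Ccl12 (126). Ccr2 (666 per kb), at rank 6 in WT fat, did not overlap with Ccl5 (209.5) below it, and all other neighbours in the WT order overlapped.

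The other genes of the pathway were taken from lists chosen with earlier results of these data known. By the same test 16.8% of all genes rose and 17.4% fell in KO fat. Of the other CC chemokine ligands, 5 of 15 were tested in fat, and 0 rose, 1 fell and 4 missed the threshold, and 7 of the 15 were listed at 0 in every fat library. The ligand that fell was Ccl24, which encodes the CCR3 ligand eotaxin-2. It averaged 147.8 ± 38.0 (SD, n = 4) in KO fat and 422.9 ± 77.1 (SD, n = 3) in WT fat, with a log2 difference of -1.53 (SE 0.24, limma adjusted p = 0.00272).

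Of the other CC chemokine receptors, 8 of 11 were tested. Of these, 3 rose (Ccr1l1 and Ccr3 among them), where 16.8% of all genes did, 0 fell and 5 missed the threshold. Their median log2 difference was 0.81, with all 8 above 0. Ccr3, the eotaxin receptor, averaged 292.2 ± 65.0 in KO fat and 67.3 ± 47.6 in WT fat (log2 difference 2.44, SE 0.57, limma adjusted p = 0.0118). Ccr1l1 averaged 21.8 in KO fat and 4.34 in WT fat (log2 difference 2.13, SE 0.37, limma adjusted p = 0.00374). It ranged from 20.5 to 23.2 in KO fat and from 3.09 to 6.02 in WT fat. Only the KO libraries carried Ccr1l1 past the filter on low values, which limits this call. Its log2 difference lay between 1.15 and 2.29 under the other settings. Ccr1, the receptor shared by Ccl3, Ccl5, Ccl6 and Ccl9 and singled out after its values were seen, did not pass. It ranged from 467 to 2251 in KO fat and from 412 to 707 in WT fat (log2 difference 0.80, SE 0.51, limma adjusted p = 0.254).

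Atypical chemokine receptors bind chemokines without classical signalling, and some of them remove the chemokines they bind. All 4 of the list were tested in fat, and 0 rose, 2 fell and 2 missed the threshold, where 17.4% of all genes fell. Cxcr7, the older symbol of Ackr3, a scavenger of CXCL12, averaged 2174 ± 415 in KO fat and 4271 ± 923 in WT fat (log2 difference -0.97, SE 0.20, limma adjusted p = 0.00704). Ccrl1, the older symbol of Ackr4, a scavenger of CCL19, CCL21 and CCL25, averaged 57.5 ± 35.3 in KO fat and 325.5 ± 196 in WT fat (log2 difference -2.48, SE 0.56, limma adjusted p = 0.0107). All 9 endothelial genes tested fell in KO fat as well, and their summed level was 22068 to 37070.3 in KO and 52943 to 67096 in WT. The part of that change in the atypical receptors was not tested.

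Of 20 genes that signal below CC chemokine receptors, 11 rose, 0 fell and 9 missed the threshold, where 16.8% of all genes rose. Their median log2 difference was 0.79. Arrb2, which encodes the receptor-desensitising protein beta-arrestin 2, rose with a log2 difference of 1.496 (SE 0.12, limma adjusted p = 0.000678). Gng2, a G protein gamma subunit, and Rgs2, a regulator of G protein signalling, rose by 1.33 and 1.79 on the same scale (limma adjusted p = 0.000909 and 0.00121).

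Of 20 genes of the inducer list, 16 were tested, with a median log2 difference of 0.27. Of these, 5 rose, 0 fell and 11 missed the threshold, where 16.8% of all genes rose. This list held genes tied to the control of CC chemokines and was not limited to genes that raise them. Il10, an anti-inflammatory cytokine of macrophages, averaged 77.2 ± 27.8 in KO fat and 14.7 ± 9.08 in WT fat (log2 difference 2.46, SE 0.50, limma adjusted p = 0.00686). It ranged from 5.16 to 23.2 in WT fat and passed the filter on low values only with the KO libraries, which limits this call. Tlr2, a receptor for bacterial lipoproteins, rose by 1.12 (SE 0.25, limma adjusted p = 0.00971). Nfkb1, a subunit of NF-kB, rose by 0.39 (SE 0.11, limma adjusted p = 0.0301), but its adjusted p reached 0.0943 without WT column 4 and it did not pass without 5 of the 7 libraries in turn. The count of genes of the inducer list that rose moved between 2 and 7 when single libraries were left out.

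Of 14 macrophage genes tested, 12 rose and 0 fell in KO fat, and of 9 mast cell genes 7 rose and 0 fell. The shares over all genes were 16.8% higher and 17.4% lower. Scaled to 1000 units of the summed macrophage list, Ccl9 was 56.4 to 94.9 in KO fat and 66.5 to 83.8 in WT fat, and Ccl6 was 64.4 to 112 in KO and 99.95 to 129.9 in WT. Ccl3 was 0.671 to 1.12 in KO fat and 0.337 to 0.697 in WT fat, and Ccl4 was 0.168 to 0.420 in KO and 0.256 to 0.343 in WT. On this scale all 4 genes that rose overlapped between KO and WT fat. For Ccl3 the overlap came only from KO replicate 4 (0.671) and WT column 1 (0.697). Its mean on this scale was 0.957 in KO fat and 0.460 in WT fat.

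Ccr2 was 6.35 to 8.86 per 1000 units of the macrophage list in KO fat and 39.5 to 48.5 in WT fat, with no overlap. Ccl2 was 2.89 to 5.11 in KO and 6.18 to 15.3 in WT, and Ccl7 was 1.14 to 2.17 in KO and 2.82 to 10.9 in WT. With Ccl12 and Ccl8, 5 of the 10 genes were below WT in every KO library on this scale, where 87.1% of all genes tested were and 0.913% were above WT in every KO library. The scaled values are a description, and the part of macrophage number in the changes was not tested.

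**Figure D3:**
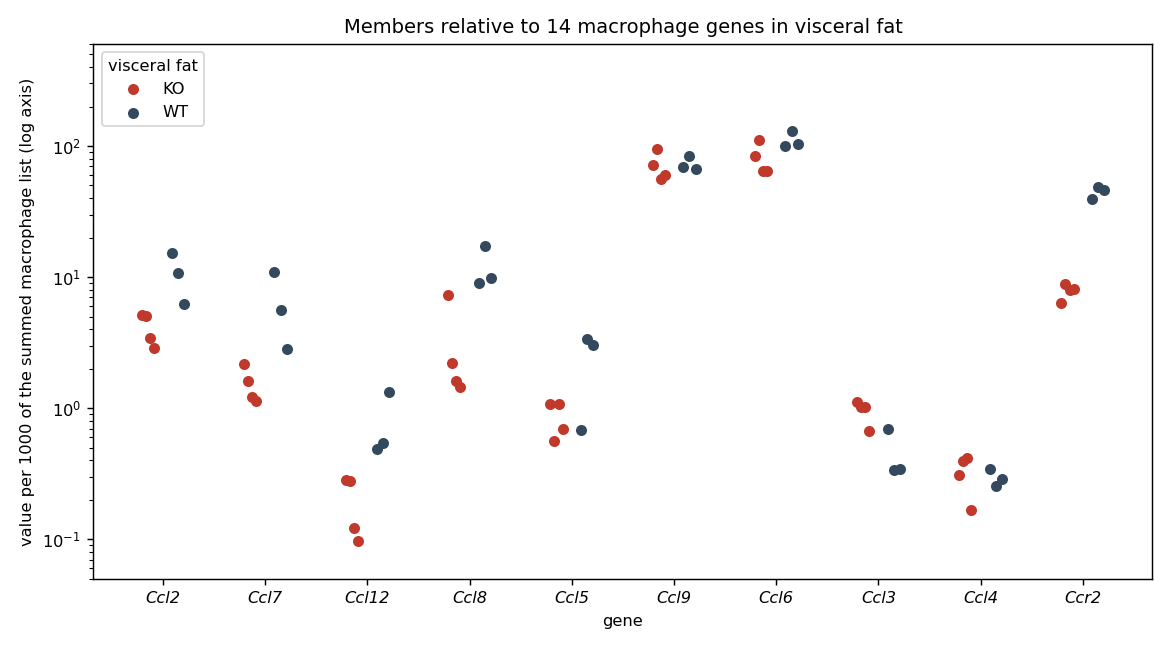
Value of each gene per 1000 units of the summed level of 14 macrophage genes in the same fat library (log axis), with a point for each of 4 KO and 3 WT libraries. Ccl9, Ccl6, Ccl3 and Ccl4 overlap between KO and WT, and Ccr2 is 6.35 to 8.86 in KO and 39.5 to 48.5 in WT.

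Of all genes tested in KO fat, 16.8% rose and 17.4% fell. Of 12 monocyte genes tested, 3 rose, 1 fell and 8 missed the threshold. Their summed level overlapped, at 127135 to 199107 in KO fat and 141053 to 281205 in WT fat, and most of that sum came from Hp, the haptoglobin gene, which adipocytes also express. Hp had 101155 ± 36250 in KO fat (SD, n = 4) and 158571 ± 61708 in WT fat (SD, n = 3; log2 difference -0.67, SE 0.41, limma adjusted p = 0.232). The 3 that rose were Fcgr1 (log2 difference 2.42), Itgam (1.74) and Csf1r (1.41), which macrophages also express, and the 1 that fell was F13a1 (log2 difference -0.80). These 5 genes were singled out after their values were seen.

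Ratios of pairs of chemokine genes were also taken within each fat library. Ccl9 over Ccl6 was 0.849 to 0.927 in KO fat and 0.642 to 0.690 in WT fat. Ccl4 over Ccl3 was 0.25 to 0.414 in KO and 0.492 to 0.842 in WT, and Ccl7 over Ccl2 was 0.319 to 0.425 in KO and 0.456 to 0.709 in WT. Ccl2 over Ccl6 was 0.0449 to 0.0605 in KO and 0.0597 to 0.153 in WT. These pairs were chosen after the values were seen and were not set against other pairs of genes, so they are given as values with no test.

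The genes most alike in pattern were sought for Ccl2, Ccl8 and Ccr2 by Pearson correlation of log2 values over the 7 fat libraries, among 11816 genes. They were Nsmce2 (r = 0.993), Ralb (0.990) and Ssr3 (0.988) for Ccl2, and Armc1 (0.983), Creb3 (0.982) and Ctnnb1 (0.982) for Ccl8. For Ccr2 they were Ube2j1 (0.992), Hn1l (0.991) and Eif4g2 (0.989). Over the 6 tumour libraries and 10635 genes they were Prdx5 (0.998), Prdx1 (0.991) and Pdcd7 (0.990) for Ccl2, Ptprg (0.973), Pear1 (0.971) and Hmgxb3 (0.968) for Ccl8, and Sdcbp2 (0.998), Ms4a4b (0.992) and Klhl5 (0.992) for Ccr2. No gene was named for the same chemokine or receptor in both tissues. The libraries share their groups and their scaling, and the highest of so many correlations across so few libraries are high by selection, so these values describe the pattern only.

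In E0771 tumours 0 of the 10 genes passed in either direction between KO and WT hosts (edgeR on read counts, adjusted over 13109 genes), where 0% of all genes did. At an unadjusted p under 0.05, 0 of the 10 genes and 6.9% of all genes were counted, and DESeq2 called 47 genes higher and 12 lower, none of the 10 among them. All 10 overlapped between KO and WT hosts, whereas 10.6% of all genes did not (5.68% with every KO library above WT and 4.93% with every KO library below). The log2 differences of the 10 genes were all above 0, between 0.10 and 0.50 with a median of 0.20, where 50.9% of all genes lay above 0. For 6 of the 10 the sign turned when a library was left out in turn.

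Ccl2 was the most abundant of the 10 per kilobase in the tumours. Its normalised reads were 6207, 8816 and 6041 in tumours of KO hosts, against 7909.7, 6318 and 5195 in tumours of WT hosts. The groups overlapped, with KO replicate 2 highest and WT replicate 3 lowest. The fold was 1.08 (95% confidence interval 0.826 to 1.42, edgeR adjusted p = 0.92), so a 2-fold difference lay outside the interval.

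Ccl7 had 3263, 3589 and 2505 normalised reads in KO hosts, against 3137, 2738 and 2335 in WT hosts. The lowest KO library was below 2 of the 3 WT libraries, and the fold was 1.14 (95% confidence interval 0.897 to 1.45, edgeR adjusted p = 0.851). Ccl12 had 947.7, 296.9 and 446.8 normalised reads in KO hosts, against 601.8, 424.9 and 446.2 in WT hosts. KO replicate 1 was the highest and KO replicate 2 the lowest of the 6 libraries.

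Ccl8 had 3542, 1179.9 and 1184 normalised reads in KO hosts, against 1329, 1267 and 1719.8 in WT hosts. KO replicate 1 stood apart, as it did for Ccl12, while the other KO libraries were below all WT libraries. The log2 difference of Ccl8 was 0.46 (SE 0.35, edgeR adjusted p = 0.831) and -0.29 without KO replicate 1, and that of Ccl12 was 0.21 (SE 0.34, edgeR adjusted p = 0.926) and -0.40 without it.

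Ccl5, Ccl3 and Ccl4 were each highest in KO replicate 2. Ccl5 had 1764, 3593 and 2104 normalised reads in KO hosts, against 2684, 2408 and 1844 in WT hosts. Ccl3 had 716.7, 1943 and 922.8 normalised reads in KO hosts, against 963.3, 739.9 and 832 in WT hosts. Ccl4 had 976.3, 1997 and 1078 normalised reads in KO hosts, against 1317, 1223 and 990.1 in WT hosts. In all 3 genes KO replicate 1 was the lowest library. Their folds were 1.07, 1.41 and 1.15, and the intervals ran from 0.752 to 1.53 for Ccl5, from 0.899 to 2.21 for Ccl3 and from 0.796 to 1.65 for Ccl4. Without KO replicate 2 the log2 differences were -0.26 for Ccl5, -0.04 for Ccl3 and -0.20 for Ccl4.

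Ccl9 and Ccl6 led the order per kilobase in fat, and in the tumours they came below Ccl2, Ccl7, Ccl8, Ccl5 and Ccl4. Ccl9 had 4147, 3142 and 2826 normalised reads in KO hosts, against 2905, 3260.4 and 2442 in WT hosts. Ccl6 had 3133, 3034 and 1849 normalised reads in KO hosts, against 1928, 2322 and 1990.3 in WT hosts. KO replicate 1 was highest for both, and for Ccl6 the groups overlapped only through KO replicate 3, the lowest library. The folds were 1.18 (95% confidence interval 0.92 to 1.502) for Ccl9 and 1.28 (0.971 to 1.70) for Ccl6, with edgeR adjusted p of 0.815 and 0.757.

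Ccr2 had 2629.7, 3236 and 2854 normalised reads in KO hosts, against 2531, 2807 and 2657 in WT hosts. It was the steadiest of the 10 genes in the tumours, with a 1.23-fold gap between the highest and lowest KO library and a 1.11-fold gap in WT hosts. The fold was 1.09 (95% confidence interval 0.907 to 1.31, edgeR adjusted p = 0.86). The exact permutation p of the 10 genes, which cannot fall under 0.1 with 3 libraries against 3, lay between 0.3 and 1.

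**Figure D4:**
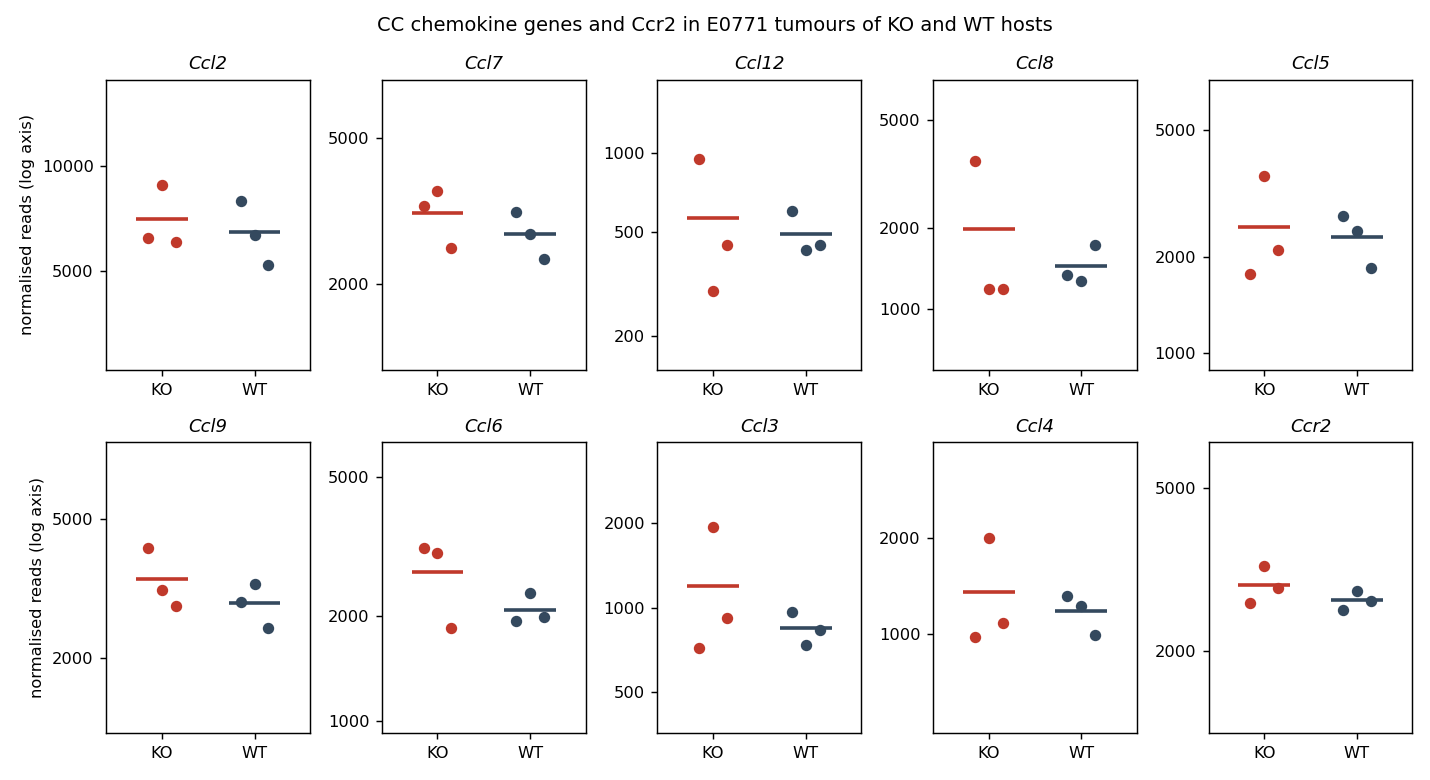
Normalised reads of each gene in E0771 tumours (log axis, a scale of its own per panel), with a point per library and a line at the mean of 3 KO and 3 WT hosts. All 10 panels overlap between KO and WT, and KO replicate 1 is highest for Ccl12 and Ccl8 and lowest for Ccl5, Ccl3 and Ccl4.

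Per kilobase, Ccl2 (6169.8 in KO hosts, 5689 in WT hosts) stood above Ccl7 (3894 in KO hosts, 3417 in WT hosts) without overlap in both groups of tumours. Ccl8, Ccl5 and Ccl4 followed in both groups. Ccr2 (430.0 per kb in KO hosts, 394 in WT hosts) was last and did not overlap with Ccl12 (1049.9 in KO hosts, 914 in WT hosts) above it. In WT hosts Ccl4 (1783 per kb) also stood above Ccl6 (1159) without overlap. The fat and tumour tables were scaled separately, so no level was set against the other tissue.

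By edgeR the pathway lists had no called member in the tumours. Among tested genes the counts were 0 of 5 other CC ligands, 0 of 8 other CC receptors and 0 of 1 atypical receptor. They were 0 of 20 signalling genes and 0 of 18 genes of the inducer list. The smallest p among the receptors was that of Ccr7, the homing receptor of lymphocytes and dendritic cells, at 328.7 ± 47.7 normalised reads in KO hosts and 516.9 ± 29.6 in WT hosts (n = 3 each, log2 difference -0.66, SE 0.16, edgeR adjusted p = 0.455). Irf1, an interferon-induced transcription factor, had 8851 ± 1534 normalised reads in KO hosts and 5947 ± 639 in WT hosts (log2 difference 0.57, SE 0.14, edgeR adjusted p = 0.446), and DESeq2 gave an adjusted p of 0.0498. DESeq2 also called Cebpb, a transcription factor gene of the inducer list, lower (log2 difference -0.76, DESeq2 adjusted p = 0.0482), where edgeR gave an adjusted p of 0.511. Irf1 and Cebpb were the 2 genes that DESeq2 called in the pathway lists, and Cebpb was named after its values were seen. Ccl1 (log2 difference 1.44, SE 0.65), Elmo1 (0.51, SE 0.20) and Cxcr7 (0.07, SE 0.11) had the smallest p of their lists, with edgeR adjusted p of 0.723, 0.676 and 0.924.

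By edgeR no gene of the cell type lists passed in the tumours. The summed macrophage list was 96918 to 121851 in KO hosts, against 92393 to 109777 in WT hosts, with 0 of 13 tested genes called. The list of T cells, a known source of Ccl5, summed to 7243 to 14283 in KO hosts, against 5723 to 7326 in WT hosts, with 0 of 11 called. The list of NK cells, another known source of Ccl5, summed to 8455 to 13426 in KO hosts, against 7473 to 8226 in WT hosts, with 0 of 9 called, and its sums did not overlap between the groups. The neutrophil list summed to 853 to 4252 in KO hosts, against 1318 to 1785 in WT hosts, with 0 of 6 called. Mast cells, known to release Ccl2 and Ccl3, had a summed list of 3559.8 to 12267.5 in KO hosts, against 1228 to 2254 in WT hosts, with 0 of 8 called by edgeR and no overlap. DESeq2 called 6 mast cell genes higher, namely Cpa3, Tpsb2, Tpsab1, Cma1, Kit and Fcer1a, together with 1 NK cell gene (Prf1), 1 dendritic cell gene (Xcr1) and 1 fibroblast gene (Col1a2), and it called no gene of the cell type lists lower. In fat the same list summed to 5363 to 20577 in KO and 1280.1 to 4195 in WT, and 7 of 9 of its genes rose. The part of these cells in the chemokine levels was not tested. Absence of overlap was not particular to NK and mast cells. Sums of the other CC receptors were 6104 to 8329 in KO hosts, against 5689 to 6057 in WT hosts. Those of the signalling genes were 98363 to 104517 in KO hosts, against 91177 to 96955 in WT hosts. Among single genes, 10.6% did not overlap between KO and WT tumours.

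**Figure D5:**
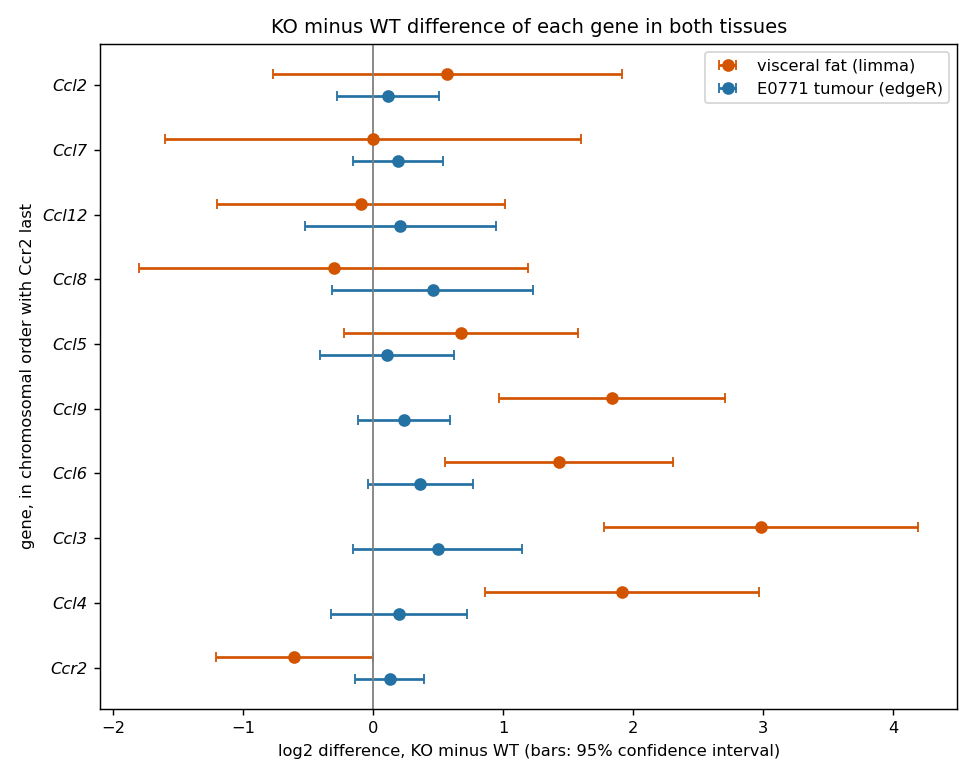
KO minus WT log2 difference of each gene in visceral fat (limma) and in E0771 tumours (edgeR), with bars for the 95% confidence interval and genes in chromosomal order with Ccr2 last. In fat Ccl9, Ccl6, Ccl3 and Ccl4 lie above 0 with their bars and Ccr2 just below it, and in tumours every bar crosses 0.

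Whether the KO minus WT difference itself differed between fat and tumours was tested by exact permutation of the host labels within each tissue, over 700 relabellings, and adjusted over 12529 genes. None of the 10 genes had a p under 0.05. The fat difference minus the tumour difference was 2.62 for Ccl3 (two-sided exact permutation p = 0.0686, adjusted p = 0.235), 1.78 for Ccl4 (0.0557, adjusted 0.213) and 1.61 for Ccl9 (0.06, adjusted 0.220). It was 1.10 for Ccl6 (exact permutation p = 0.171, adjusted 0.375) and -0.73 for Ccr2 (0.0529, adjusted 0.209). A difference between the tissues was thus not shown.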

How the data were processed

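RNA from 13 libraries was measured, 7 of visceral fat and 6 of E0771 tumours. Per the labels, about 500 ng of RNA per library went into a TruSeq stranded mRNA preparation. CASAVA, TopHat, DESeq2 and mm10 are named in the submitters' processing notes, with no role or version. For tumours the authors deposited raw read counts per gene symbol. The 5 summary lines of that table held 66.7% to 72.2% of entries and were left out. For fat the authors deposited a normalised signal, which is read counts divided by a size factor per library: all 117220 values above 0 came out as whole reads within 0.001 (100%). Fat WT columns are numbered 1, 3 and 4 and the labels 1, 2 and 3, so they were assigned to the WT group only.

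In fat, genes that reached 10 in 3 or more libraries were fitted on the log2(value + 1) scale by limma 3.58.1 (trended prior). For the tumours the edgeR 4.0.16 quasi-likelihood test was run in R 4.3.3 after filterByExpr with TMM factors, and normalised reads are counts rescaled by TMM library size. The SE in edgeR was the log2 difference divided by the square root of its F statistic. Tests were two-sided, KO minus WT, with Benjamini-Hochberg adjustment over all genes and a threshold of 0.05. Alternatives were other pseudocounts, filters, scalings and tools (DESeq2 1.42.0, limma-voom, edgeR on the whole reads recovered in fat, which called 4898 genes, 4777 of them shared with limma), a replicate block in tumours, and leaving out each library.

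Named genes were the members, Cd274, up to 3 passing genes per direction of each pathway list by smallest p (the smallest p alone where none passed), and 3 genes most alike Ccl2, Ccl8 and Ccr2 with a mean of 50 or more, predicted gene models left out. The result of 1 gene named by this rule is not reported here. The members and lists were chosen with earlier results of these data known. Gene positions and exon lengths came from GENCODE M21 (GRCm38). The procedures were tested on simulated data. No libraries of a group were duplicates, with a chi-square per degree of freedom of at least 23.1 in every pair.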

Additional observations from a re-analysis of the deposited data

Results flagged for a closer look

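Among the 10 genes in KO fat, Ccl8 had the value that stood out on the untransformed scale. KO replicate 1 had 3084, against 813.4, 485.7 and 496.8 in the other KO libraries, while WT fat ranged from 555.8 to 1646. The gap to the next KO library was 0.874 of the range of the KO group, above the critical value of Dixon's test for 4 samples. Chance flags about 1 in 20 groups of normally distributed values, and 10 groups were examined here, the 10 genes in KO fat. WT fat and the tumours were not examined in this way. In tumours of KO hosts, Ccl8 also had a library apart, at 3542 against 1179.9 and 1184. KO replicate 1 was also the highest fat library for Ccl12, Ccl5 and Ccl3. Without it the log2 difference of Ccl8, KO minus WT, was -0.91 (limma adjusted p = 0.14), and with it -0.31.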

How the results depend on the processing

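The 4 fat members that rose did so under all 6 other settings, and Ccl9 and Ccl3 also without each library in turn. With single libraries left out, 3 to 4 members rose and 0 to 1 fell, the gene that fell being Ccr2 without WT column 4. Genes called in fat then numbered 1575 to 2691 higher and 1490 to 2567 lower, the low ends without WT column 3. Differences near 0 turned sign: Ccl7 in fat was 0.016 with TMM factors, and Ccl12 and Ccl8 in fat were 0.11 and 0.020 with edgeR on recovered reads, none near the threshold. Left-out libraries moved the log2 difference in fat from -0.15 to 1.24 for Ccl2, -0.87 to 0.84 for Ccl7 (-0.27 to 0.17 over KO libraries, 0.011 without WT column 3), -0.40 to 0.21 for Ccl12 (0.0043 without WT column 1) and -0.20 to 0.076 for Cd274. In tumours they moved it from -0.079 to 0.28 for Ccl2, -0.40 to 0.51 for Ccl12, -0.29 to 0.72 for Ccl8, -0.26 to 0.29 for Ccl5, -0.044 to 0.75 for Ccl3 and -0.20 to 0.38 for Ccl4. No tumour member passed in any setting. Tumour genes called were 47 higher and 12 lower with DESeq2, 21 higher and 1 lower without a filter, and 0 to 10 higher and 0 to 11 lower with libraries left out. Members with an unadjusted exact permutation p under 0.05 for the difference between tissues numbered 0 to 2 with libraries left out. That count departed from the 0 of the main test in 6 of 13 such runs. The causes of these shifts were not tested. Deviations of tumours with the same replicate number had correlations of -0.218, 0.0118 and -0.220, so no pairing by number was seen. With 3 libraries per group this check cannot exclude a shared batch. The replicate block gave 0 called members and 0 called genes. No paired analysis was possible in fat because the WT columns do not carry the labels' replicate numbers. Low counts limit Ccl3 and Ccl4 in WT fat, at 16 to 128 reads. Low values also limit the receptor gene Ccr1l1 in WT fat, at 3.09 to 6.02, and Il10, at 5.16 to 23.2.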
